A study of Mus musculus with 9 samples.

Results

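Nonmuscle myosin II is followed here through 8 genes, 3 encoding heavy chains (Myh9, Myh10, Myh14), 3 encoding light chains (Myl6, Myl12a, Myl12b), the gene of myosin light chain kinase (Mylk) and Ppp1r12a, which encodes the targeting subunit of myosin phosphatase. They were chosen by symbol as the motor and the enzymes that act on its regulatory light chain, and all 8 were found among 35928 gene symbols to which the quantified transcripts were assigned. All 8 passed the filter on low counts. Poly-A RNA had been sequenced from E14 cells, a mouse embryonic stem cell line, in 9 libraries that fall into 3 groups of 3 with replicate numbers 1 to 3. Control cells with LIF2i stayed in medium for self-renewal, with the cytokine LIF, the MEK inhibitor PD0325901 and the glycogen synthase kinase-3β inhibitor CHIR99021. Withdrawn cells were control cells cultured for 72 h without these factors, which starts spontaneous differentiation. CK666 cells went through the same 72 h of withdrawal with CK666 at 80 µM, a compound that inhibits Arp2/3. All groups are 1 cell line on gelatin in serum-containing medium. The drug was dissolved in DMSO, and no label states that control cultures were given the solvent, so that the effects of both cannot be told apart.

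Nonmuscle myosin II is the motor that pulls on actin filaments in non-muscle cells. Each molecule holds a pair of heavy chains, each with an essential and a regulatory light chain bound to its neck, and assembles into short bipolar filaments that tension the cell cortex and close the cleavage furrow. Phosphorylation of the regulatory light chain, by myosin light chain kinase when calcium rises or downstream of the GTPase RhoA, switches the motor on. The phosphatase holding the Ppp1r12a subunit removes this phosphate. In pluripotent stem cells, actomyosin contraction is known for the death of dissociated human cells, and loss of Myh9 is known to weaken adhesion between mouse cells. Arp2/3 builds the branched actin networks that compete with contractile bundles for actin.

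The libraries held between 16894327 and 22550952 estimated counts. On the scale of the CPM values below, which set each library to the same total after TMM scaling, 3 counts, used as the floor of detection, equal 0.142 to 0.182 CPM. Floors cover counting error only. The 3 libraries of replicate 1 stood apart, with 15690 to 17607 genes above a count of 0 beside 18168 to 18749 in replicates 2 and 3. Each group holds 1 of them. Summed levels of 8 embryonic stem cell markers were 4558 to 4971 CPM with LIF2i, 2001 to 2064 CPM after withdrawal and 1965 to 2285 CPM with CK666, and none of the 8 was at or under the floor in every library of a group. In a bulk library, fewer cells of a type and less RNA per cell cannot be told apart.

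By the deposited TPM values, which divide counts by transcript length and so allow genes to be compared, the light chains were the most abundant members. The order of the group means was the same in all 3 groups: Myl6, Myl12b, Myl12a, Myh9, Ppp1r12a, Myh10, Myh14 and Mylk. The place of Myl12b above Myl12a depends on Myl12b-206, a transcript described below that joins exons of both genes. It held 51.1% to 71.6% of Myl12b TPM per library, and without it Myl12b would rank below Myl12a in each group. With LIF2i the means ran from 507 TPM for Myl6 to 18.02 TPM for Myh14, with Mylk at 0.0822 TPM. Several neighbours in this order overlapped in range. With LIF2i, Myl6 overlapped Myl12b and Myh9 overlapped Ppp1r12a. After withdrawal Myh9 no longer overlapped Ppp1r12a (91.3 to 105.8 TPM beside 55.5 to 69.0 TPM), while Ppp1r12a overlapped Myh10 (49.5 to 85.4 TPM). Mylk stayed below every other member in each library.

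**Figure D1:**
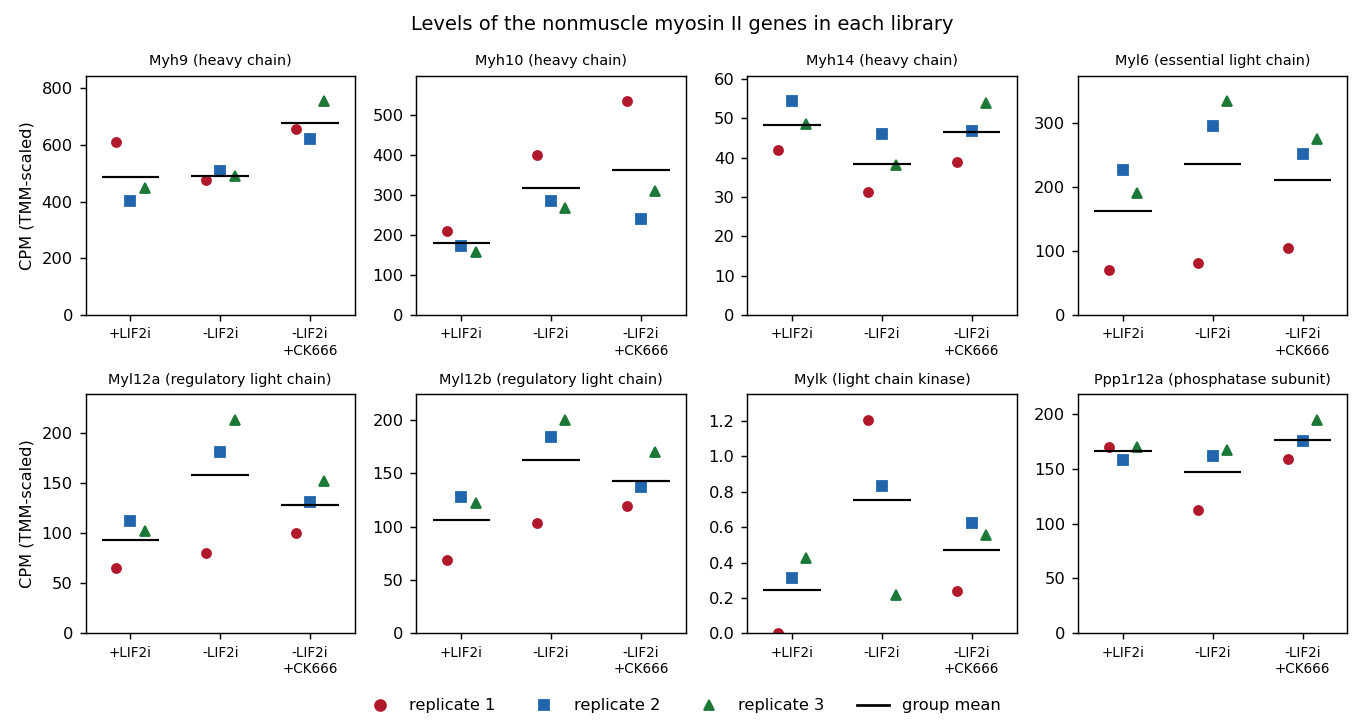
Level of each of the 8 genes in CPM (TMM-scaled, linear axis from 0) in the 9 libraries, by group, with 1 symbol per replicate number and a line at the group mean. Myh10 lies higher in all 6 libraries without LIF2i than in those with it, Myl6, Myl12a and Myl12b are lowest in replicate 1 of every group, and Mylk is at or under 1.21 CPM throughout.

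On withdrawal of LIF2i, 1 heavy chain and the 3 light chains rose. Of the 8 genes, 4 rose and none fell by edgeR's quasi-likelihood test at an adjusted p under 0.05 with the replicate number as a block: the heavy chain Myh10 and the light chains Myl6, Myl12a and Myl12b. This is 50% of the members beside 40.9% of all 14619 genes tested called in either direction and 21.2% called higher. Myl12a and Myl12b are not independent members of this count. Reads are hard to assign between them, and the Myl12b call rests on a joined record, described below, that holds exons of Myl12a. The median log2 fold change was 0.54 over the 8 members and 0.01 over all genes tested. Without the block none of the 4 was called, beside 3509 of all genes (24.0%). The ranges of the CPM values of the 2 groups did not overlap for 1 member, Myh10, beside 40.7% of all genes.

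Adding CK666 to withdrawn cells changed no member past the threshold, where 2.10% of all genes were called. At an unadjusted p under 0.05 there was 1 of 8 members, Myh9, beside 2903 of all 14619 genes, so the members did not stand out. Both limma voom and DESeq2, the latter without an adjusted p for Mylk, called 0 members. The median log2 fold change was 0.05 over the members and 0.02 over all genes. Myh9 was the only member whose CPM ranges did not overlap between these groups, beside 16.5% of all genes. When CK666 cells were set against control cells with LIF2i, which share libraries with both other comparisons, 4 members were higher (Myh9, Myh10, Myl12a, Myl12b) and none lower. This is 50% of the members beside 37.1% of all genes called in either direction and 19.9% called higher. Myl12a and Myl12b are again not independent members of the count. Without the block 1 of them, Myh10, was called, beside 20.3% of all genes. Myh9 and Myh10 were the members without overlap there, beside 37.3% of all genes.

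**Figure D2:**
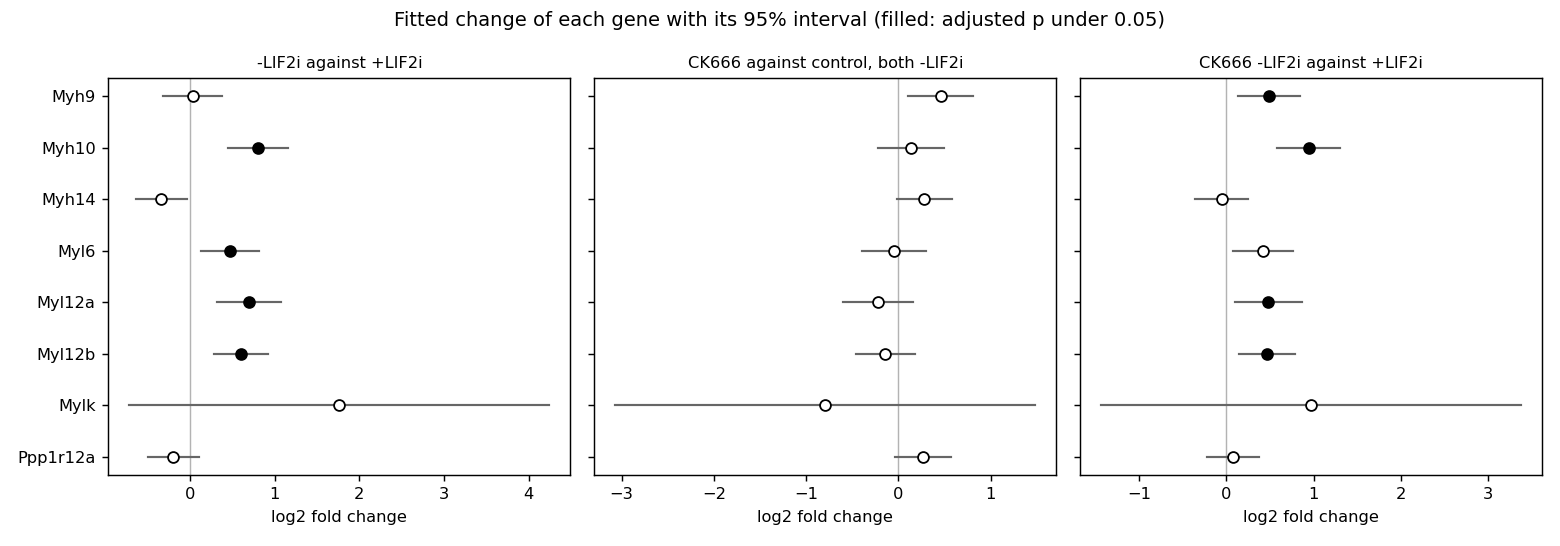
Log2 fold change of each gene (point) with its 95% interval (bar) in the 3 comparisons, from edgeR's quasi-likelihood fit with the replicate block; filled points passed an adjusted p under 0.05, and each panel has its own axis. Myh10 is filled in the panels against LIF2i, no point is filled for CK666 against withdrawn control, and the bars of Mylk span 0 in each panel.

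Myh9 encodes the heavy chain of myosin IIA, the form that turns over fastest on stress fibres and at the cell front. The gene lies at chr15:77760587-77842175 (minus strand, GRCm38). Its levels in replicates 1, 2 and 3 were 609.6, 400.3 and 449 CPM with LIF2i, 474, 509 and 491 CPM after withdrawal, and 657, 622 and 753 CPM with CK666. The CK666 libraries were the 3 highest of all 9, and the withdrawn libraries lay within the range of those with LIF2i. Withdrawal gave 0.03 on the log2 scale (SE 0.16, edgeR adjusted p 0.896, higher in 2 of 3 pairs). CK666 against withdrawn control gave 0.46 (SE 0.16, higher in 3 of 3 pairs), a 1.37-fold difference with a 95% interval of 1.08 to 1.75, whose edgeR adjusted p of 0.149 missed the threshold. It passed in 3 of 20 alternatives, at 0.0296 without replicate 1, 0.0169 without the replicate 1 library with LIF2i and 0.0314 in a fit of those groups alone. CK666 against LIF2i gave 0.49 (SE 0.16, edgeR adjusted p 0.0356, higher in 3 of 3 pairs) and passed in 11 of 20 alternatives. That call was lost without the block (adjusted p 0.146), in the fit of those groups alone, without replicate 2 or 3, and without any 1 of the libraries of replicate 2 or 3 with LIF2i or CK666 or of replicate 3 after withdrawal, at adjusted p-values up to 0.306.

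Myh10 encodes the heavy chain of myosin IIB, which stays bound to actin longer than IIA and is known for sustained tension and for its abundance in neural tissue. It lies at chr11:68691559-68816632 (plus strand, GRCm38). In replicates 1, 2 and 3 it was at 210.0, 172 and 158 CPM with LIF2i, 399, 286 and 268 CPM after withdrawal, and 534, 239 and 311 CPM with CK666. All 6 libraries without LIF2i lay above all 3 with it, while the CK666 group spanned the withdrawn group. Its log2 fold change on withdrawal was 0.80 (SE 0.16, edgeR adjusted p 0.00349, higher in 3 of 3 pairs), which is 1.74-fold with a 95% interval of 1.36 to 2.24. CK666 cells were 1.92-fold higher than cells with LIF2i (1.498 to 2.47, log2 0.94, SE 0.16, edgeR adjusted p 0.00174). CK666 against withdrawn control gave 0.14 (SE 0.16, edgeR adjusted p 0.677), with a 95% interval of -0.21 to 0.50 on the log2 scale. The withdrawal call held in 19 of 20 alternatives and was lost without the block (adjusted p 0.0804). The call against LIF2i held in 20 of 20, with an adjusted p of 0.0437 without the block.

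Myh10 can carry a pair of extra exons that put inserts into surface loops of the motor head, known as B1 and B2 and typical of neurons. Their sequences in the GENCODE M21 transcript that holds both are shown because they separate the neural form from the general one; capitals mark the exon, and the lower-case letters are the 18 coding bases spliced to it on each side.
Myh10 exon of 30 bases, chr11:68745935-68745964: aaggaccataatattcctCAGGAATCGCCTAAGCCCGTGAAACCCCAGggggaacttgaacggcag
Myh10 exon of 63 bases, chr11:68775365-68775427: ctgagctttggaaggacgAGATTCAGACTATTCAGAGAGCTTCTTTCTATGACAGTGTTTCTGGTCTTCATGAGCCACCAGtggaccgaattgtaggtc
Only 1 annotated transcript holds each exon, and it is the one with both. It was listed at 0 in 7 of 9 libraries, among them all 6 without LIF2i. In replicates 2 and 3 with LIF2i it held 0.549% and 0.673% of the TPM of the transcripts that span the site. The rise of Myh10 without LIF2i was thus assigned to transcripts annotated without these exons, and 1 of them, Myh10-203, held 93.0% to 100.0% of Myh10 TPM in every library. A form with just 1 of the exons has no annotated transcript, and there are no reads per splice junction, so such a form could not be seen.

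Myh14 encodes the heavy chain of myosin IIC, the form with the narrowest tissue range. It lies at chr7:44605803-44670843 (minus strand, GRCm38), and 0.825% of its exonic bases are shared with 2310016G11Rik. Its levels in replicates 1, 2 and 3 were 42.0, 54.3 and 48.6 CPM with LIF2i, 31.3, 45.9 and 38.1 CPM after withdrawal, and 39.0, 46.8 and 53.9 CPM with CK666. Every same-numbered pair was lower after withdrawal, but the groups overlapped. The log2 fold change on withdrawal was -0.34 (SE 0.13, edgeR adjusted p 0.0710), and this did not pass in any of 20 alternatives. With CK666 it was 0.28 against withdrawn control (SE 0.13, edgeR adjusted p 0.277) and -0.05 against LIF2i (SE 0.13, edgeR adjusted p 0.776).

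Myh14 has a loop insert of its own kind, a coding exon of 24 bases that is held by transcript Myh14-201 and left out by Myh14-202. Its sequence is shown because it is the exon whose share differed most between the groups among the 3 examined; capitals mark the exon and lower case the 18 coding bases spliced on each side.
Myh14 exon of 24 bases, chr7:44657417-44657440: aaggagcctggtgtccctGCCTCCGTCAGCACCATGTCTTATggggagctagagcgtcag
Of the Myh14 TPM that spanned the site, transcripts with the exon held 0.00%, 43.2% and 51.6% in replicates 1, 2 and 3 with LIF2i. After withdrawal the shares were 95.8%, 86.3% and 100.0%. With CK666 they were 59.4%, 100.0% and 45.5%. All withdrawn libraries lay above all libraries with LIF2i, and the CK666 group overlapped both. The group means were 31.6% ± 27.7 (SD, n = 3), 94.0% ± 7.0 and 68.3% ± 28.3. A two-sided exact permutation test of 3 against 3 libraries gave p = 0.1 for withdrawal, the smallest it can give, 0.4 for CK666 against withdrawn control and 0.2 for CK666 against LIF2i. The spanning transcripts held only 7.70 to 11.0 TPM per library, the files give no reads per splice junction, and the transcripts also differ at their 5′ ends, so these shares are estimates of the quantification.

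Within a library, the heavy chains can be set against each other by TPM. Myh9 held 67.9%, 59.6% and 65.2% of the summed heavy-chain TPM in replicates 1, 2 and 3 with LIF2i, 51.7%, 57.5% and 59.6% after withdrawal, and 53.4%, 67.6% and 64.9% with CK666. Myh10 held 22.1%, 24.6% and 22.8% with LIF2i, 41.7%, 31.5% and 32.3% after withdrawal, and 41.8%, 24.0% and 26.8% with CK666. Myh9 was therefore the main heavy chain in all 9 libraries, and the Myh10 share was higher in each withdrawn library than in any with LIF2i. The mean Myh10 share was 12.02 percentage points higher after withdrawal (23.2% ± 1.31 to 35.2% ± 5.68, SD, n = 3; two-sided exact permutation p = 0.1, the smallest that 3 against 3 can give). The mean Myh9 share moved by -7.96 points in the same comparison, from 64.2% ± 4.27 to 56.3% ± 4.10 (n = 3 each, exact permutation p = 0.2), lower in 3 of 3 pairs and at -3.82 points without replicate 1. Myh14 held 12.6% ± 2.96 with LIF2i, 8.55% ± 2.26 after withdrawal and 7.20% ± 2.07 with CK666, differences of -4.07 points on withdrawal and -5.42 points for CK666 against LIF2i that were -0.89 and -1.68 points with protein-coding transcripts only. CK666 against withdrawn control moved the mean share of Myh10 by -4.35 points and that of Myh9 by 5.70 points (exact permutation p = 0.6 and 0.3, n = 3 each), in 2 and 3 of 3 pairs. Without replicate 2 these were -2.77 and 3.51 points, and without replicate 1 they were -6.54 and 7.68 points. These permutation tests do not use the pairing of replicate numbers. The summed heavy-chain TPM was 149.5 ± 52.0 with LIF2i, 173 ± 27.8 after withdrawal and 217 ± 46.4 with CK666, with overlapping ranges.

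**Figure D3:**
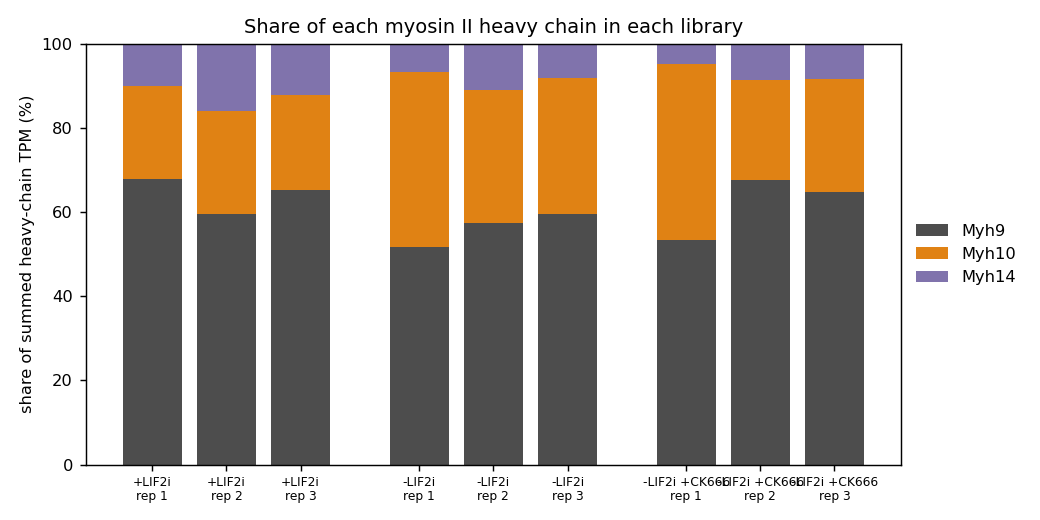
Share of Myh9, Myh10 and Myh14 in the summed heavy-chain TPM of each library (stacked bars from 0 to 100%), by group and replicate. The Myh10 part is 22.1% to 24.6% with LIF2i and 31.5% to 41.7% after withdrawal, and in the CK666 group it is 41.8% in replicate 1 and 24.0% and 26.8% in the others.

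Myl6 encodes the essential light chain, which stiffens the lever arm of the motor. It lies at chr10:128490860-128494145 (minus strand, GRCm38). In replicates 1, 2 and 3 it was at 70.4, 226 and 190.1 CPM with LIF2i, 80.5, 296 and 334 CPM after withdrawal, and 105.4, 252 and 275 CPM with CK666. Replicate 1 was far below the others in every group, and the groups overlapped because of it. In same-numbered pairs withdrawal raised it in 3 of 3, at 0.47 on the log2 scale (SE 0.15, edgeR adjusted p 0.0342), 1.39-fold with a 95% interval of 1.09 to 1.76. CK666 against withdrawn control gave -0.05 (SE 0.15, edgeR adjusted p 0.900) and CK666 against LIF2i 0.42 (SE 0.15, edgeR adjusted p 0.0550). The withdrawal call held in 12 of 20 alternatives. It was lost without the block (adjusted p 0.565), with protein-coding transcripts only (0.0517), without replicate 2 (0.0953) or 3 (0.323), and without the replicate 3 library with LIF2i (0.170), the replicate 2 (0.114) or 3 (0.193) library after withdrawal, or the replicate 3 library with CK666 (0.0502).

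Myl12a and Myl12b encode near-identical regulatory light chains, the subunit that the kinases phosphorylate. They are neighbours on the minus strand, at chr17:70993656-71002878 and chr17:70973133-70990890 (GRCm38), and their coding sequences of 516 bases differ at 18 positions (96.5% identity). The annotation also holds a joined record with the symbol Myl12b, chr17:70974119-71002208, whose transcript Myl12b-206 runs from the first coding exons of Myl12a into the last exon of Myl12b. Its coding sequence differs from that of Myl12a at 1 base and from that of Myl12b-204 at 17. The first 90 coding bases and the first 90 bases of the last coding exon are shown because they are what reads must tell apart; capitals mark the bases at which Myl12a and Myl12b differ.
Myl12a-208 first coding bases, chr17:70996791-70996880: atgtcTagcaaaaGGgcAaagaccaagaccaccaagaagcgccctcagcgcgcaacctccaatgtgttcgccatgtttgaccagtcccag
Myl12b-204 first coding bases, chr17:70977142-70977231: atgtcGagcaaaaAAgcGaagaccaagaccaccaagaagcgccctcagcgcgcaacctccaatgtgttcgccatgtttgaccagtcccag
Myl12b-206 first coding bases: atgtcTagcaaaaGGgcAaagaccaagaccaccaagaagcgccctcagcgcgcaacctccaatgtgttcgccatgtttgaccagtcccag
Myl12a-208 last coding exon, chr17:70994695-70994784: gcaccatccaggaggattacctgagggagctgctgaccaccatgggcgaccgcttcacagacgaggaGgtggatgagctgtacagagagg
Myl12b-204 last coding exon, chr17:70974407-70974496: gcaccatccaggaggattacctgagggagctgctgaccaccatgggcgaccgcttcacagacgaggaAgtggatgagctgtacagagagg
Myl12b-206 last coding exon: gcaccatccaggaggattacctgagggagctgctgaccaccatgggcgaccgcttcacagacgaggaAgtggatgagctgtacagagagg
In the first stretch Myl12b-206 has the letters of Myl12a, and in the last exon those of Myl12b. The annotation shares 19.9% of the exonic bases of Myl12a with Myl12b and Myom1, and 14.3% of those of Myl12b with Myl12a. The split of counts between these genes is therefore uncertain, and the sum of both is given as well.

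Myl12a was at 64.8, 112 and 102 CPM in replicates 1, 2 and 3 with LIF2i, 80.1, 181 and 213 CPM after withdrawal, and 100.4, 131 and 152 CPM with CK666. Myl12b was at 69.1, 128 and 123 CPM with LIF2i, 104, 184 and 199.9 CPM after withdrawal, and 119.5, 137 and 170.0 CPM with CK666. Both genes were lowest in replicate 1 of each group, and both were higher after withdrawal in 3 of 3 pairs while the group ranges overlapped. On withdrawal, Myl12a rose by 0.70 on the log2 scale (SE 0.17, edgeR adjusted p 0.00945), 1.62-fold with a 95% interval of 1.25 to 2.11. Myl12b rose by 0.60 (SE 0.14, edgeR adjusted p 0.00833), 1.52-fold with an interval of 1.22 to 1.90. With their counts summed the change was 0.65 (edgeR adjusted p 0.00769). Fitted without the block, Myl12a had an adjusted p of 0.151 and Myl12b of 0.184. Both calls were also lost without replicate 3 (0.132 and 0.103) and without the replicate 3 library after withdrawal (0.0624 and 0.0501), and that of Myl12a without the replicate 3 library with LIF2i (0.0599).

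CK666 against withdrawn control gave -0.22 (SE 0.17, edgeR adjusted p 0.526) for Myl12a and -0.14 (SE 0.14, edgeR adjusted p 0.639) for Myl12b, each lower in 2 of 3 pairs. For Myl12a this passed in 1 of 21 alternatives, at -0.49 without replicate 1 (adjusted p 0.0312). Against LIF2i, CK666 cells were higher by 0.48 for Myl12a (SE 0.17, edgeR adjusted p 0.0491) and by 0.46 for Myl12b (SE 0.14, edgeR adjusted p 0.0306), in 3 of 3 pairs each. Those calls held in 10 of 21 and 13 of 23 alternatives and were lost without the block (adjusted p 0.415 and 0.387). Among the alternatives that lost them were the fits without the replicate 1 library with LIF2i (0.0576 and 0.0672), the replicate 3 library with LIF2i (0.202 and 0.116) and the replicate 1 library with CK666 (0.236 and 0.126). Counted alone, the ordinary Myl12b record gave 0.43 on withdrawal (edgeR adjusted p 0.168) and the joined record 0.84 (0.00497), so the Myl12b call rests on the joined record.

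The joined transcript Myl12b-206 held 56.2%, 57.5% and 51.1% of Myl12b TPM with LIF2i, 71.6%, 68.8% and 69.6% after withdrawal, and 66.3%, 61.6% and 63.3% with CK666. The 3 groups did not overlap, with CK666 between the others, and this separation was not tested. The coding sequence of Myl12b-206 differs from that of Myl12a at 1 base, so these shares are estimates of the quantification. Marker sums of smooth muscle, fibroblasts, primitive endoderm and trophoblast were all higher after withdrawal than with LIF2i. The 6 smooth muscle genes summed to 49.0 to 71.3 CPM with LIF2i, 95.5 to 179 CPM after withdrawal and 78.9 to 121 CPM with CK666, with none at or under the floor in every library of a group. Markers of fibroblasts summed to 12.5 to 28.3, 32.6 to 44.8 and 22.5 to 31.8 CPM, with Lum at or under 3 counts in every library. Those of primitive endoderm (6 genes) summed to 11.7 to 14.5, 20.4 to 49.4 and 26.5 to 42.3 CPM, and those of trophoblast (5 genes) to 1.28 to 3.19, 6.08 to 9.28 and 7.44 to 8.71 CPM. Neural markers (4 genes, Neurog2 at or under 3 counts in every library) summed to 48.2 to 194 CPM with LIF2i, 17.2 to 74.8 CPM after withdrawal and 28.9 to 100.2 CPM with CK666, so that the groups overlapped. The part of these cell types in the results for the light chains and Myh10 was not tested.

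**Figure D4:**
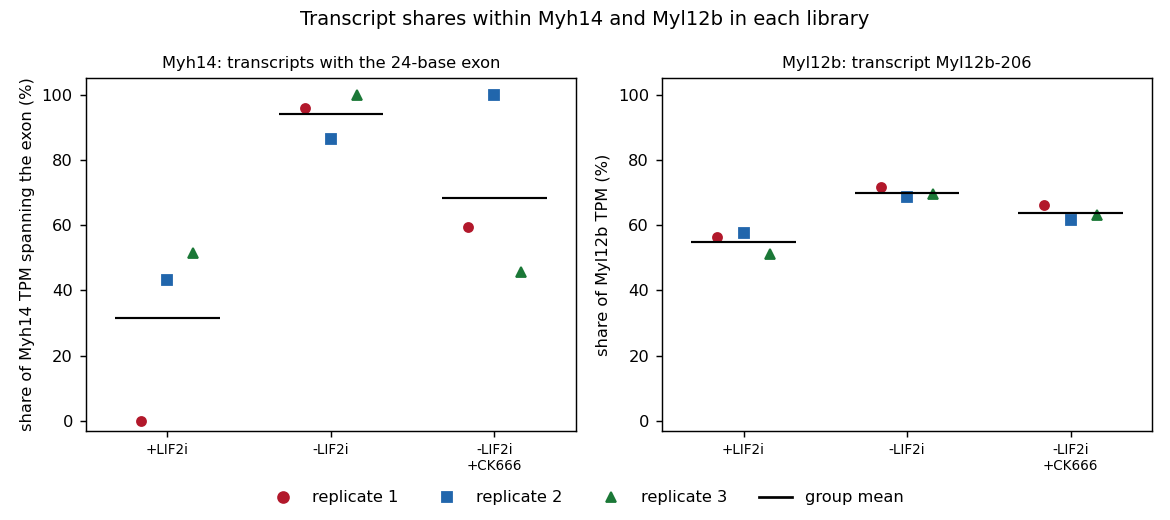
Left, share of the Myh14 TPM spanning the 24-base exon that lies in transcripts with it; right, share of Myl12b TPM in transcript Myl12b-206; both in percent per library, by group, with 1 symbol per replicate number and a line at the group mean. The withdrawn libraries lie above those with LIF2i on both sides (86.3% or more against 51.6% or less on the left, 68.8% or more against 57.5% or less on the right).

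Mylk encodes myosin light chain kinase. It lies at chr16:34745210-35002420 (plus strand, GRCm38). It had 0, 6 and 7 estimated counts in replicates 1, 2 and 3 with LIF2i, 25, 16 and 4 after withdrawal, and 5, 11 and 10 with CK666, so that it was at most 1.21 CPM in any library. The groups overlapped, and the count of 0 allows a level of up to 0.147 CPM in that library. The log2 fold changes were 1.77 on withdrawal (SE 1.10, edgeR adjusted p 0.234), -0.79 for CK666 against withdrawn control (SE 1.01, edgeR adjusted p 0.721) and 0.97 for CK666 against LIF2i (SE 1.07, edgeR adjusted p 0.509). The withdrawal value ran from 0.44 without replicate 1 to 3.10 without replicate 3. No difference in Mylk was detectable in these libraries, in which the withdrawn group alone spread from 4 to 25 counts. In replicates 1 and 2 after withdrawal, 68.7% and 76.5% of its TPM were in Mylk-204, a processed transcript of 801 bases without an annotated coding sequence, and 6.85% of its exonic bases are shared with other genes.

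Ppp1r12a encodes MYPT1, which brings the catalytic phosphatase subunit to myosin. It lies at chr10:108162193-108284475 (plus strand, GRCm38). Its levels in replicates 1, 2 and 3 were 170.1, 158 and 170.0 CPM with LIF2i, 112, 162 and 167 CPM after withdrawal, and 159, 175 and 195 CPM with CK666. The withdrawn replicate 1 library was the lowest of all 9, and all groups overlapped. The log2 fold change was -0.20 on withdrawal (SE 0.13, edgeR adjusted p 0.278), 0.27 for CK666 against withdrawn control (SE 0.13, edgeR adjusted p 0.301, higher in 3 of 3 pairs) and 0.08 for CK666 against LIF2i (SE 0.13, edgeR adjusted p 0.691). None of these passed in any of 20 alternatives.

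Around the motor, 51 further genes of its regulation were listed by role, of which 48 passed the filter on low counts (all but Mylk3, Mylk4 and S100a4). On withdrawal 16 rose and 9 fell, 52.1% of those tested beside 40.9% of all genes, and 11 were called without the block, 22.9% beside 24.0% of all genes. Their median log2 fold change was 0.15. Of the other light chains, Myl9, the regulatory light chain of smooth muscle, went from 0.442, 0.209 and 0.121 CPM in replicates 1, 2 and 3 with LIF2i to 8.40, 68.4 and 48.3 CPM after withdrawal, and was at 5.12, 16.3 and 31.0 CPM with CK666. All libraries without LIF2i were above all with it, by a log2 fold change of 6.97 on withdrawal (SE 0.70, edgeR adjusted p 0.000128) and 5.80 for CK666 against LIF2i (SE 0.70, edgeR adjusted p 0.000404). With LIF2i it was near the floor of 3 counts, so that these fitted values do not give the size of the fold. Myl9 is also a gene of smooth muscle, whose marker sums are given beside the light chains above.

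Among the kinases of the regulatory light chain, 4 rose and 1 fell of 9 tested on withdrawal, 55.6% beside 40.9% of all genes. Without the block 3 of the 9 were called, 33.3% beside 24.0% of all genes. Stk17b (log2 fold change 1.93, SE 0.16) and Dapk3 (1.35, SE 0.24), genes of the death-associated protein kinase family, rose in both fits, and Cdc42bpb (0.42, SE 0.13), a kinase that acts downstream of Cdc42, only in the fit with the block. Mylk2, the skeletal muscle light chain kinase, was at 0, 0 and 0.0607 CPM with LIF2i and 1.29 to 2.70 CPM after withdrawal, low levels that make its fitted fold change no bound. The 8 markers of striated muscle summed to 12.7 to 16.6 CPM with LIF2i, 15.9 to 23.1 CPM after withdrawal and 11.0 to 19.7 CPM with CK666, with overlap between all groups. Cit, the citron kinase of the cleavage furrow, fell by 0.61 on the log2 scale (SE 0.18, edgeR adjusted p 0.0208, and 0.0848 without the block). Among phosphatase genes 2 of 8 rose, 25% beside 40.9% of all genes, of which Ppp1r14b was lost without the block (adjusted p 0.220). The phosphatase inhibitor gene Ppp1r14c was at 0 to 0.243 CPM with LIF2i and 3.19 to 7.61 CPM after withdrawal.

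Among 6 genes of small GTPases (Rhoa, Rhob, Rhoc and the Rnd genes) none rose and 2 fell, 33.3% beside 40.9% of all genes, and 1 was called without the block, 16.7% beside 24.0%. Rhoa fell by 0.49 (SE 0.11, edgeR adjusted p 0.00545, and 0.205 without the block) and Rnd1, whose product inhibits RhoA signalling, by 1.76 (SE 0.41, edgeR adjusted p 0.00793). Rnd1 went from 3.97 ± 0.812 to 1.15 ± 0.219 CPM, and Rhoa from 453 ± 122 to 319 ± 62.7 CPM. Of 10 genes of exchange factors, which switch RhoA and its relatives on, 4 rose and 2 fell (60.0% beside 40.9% of all genes), and 3 were called without the block (30.0% beside 24.0%). Arhgef28 had the largest rise of these, 3.08 on the log2 scale (SE 0.39, edgeR adjusted p 0.000284), from 2.39 ± 1.90 CPM (SD, n = 3) to 18.4 ± 7.51 CPM. Of 7 genes of GTPase-activating proteins, which switch them off, 2 rose and 2 fell (57.1% beside 40.9%), and 2 were called without the block (28.6% beside 24.0%). Dlc1, a GTPase-activating protein for RhoA, fell by 2.66 (SE 0.17, edgeR adjusted p 8.58e-06), from 347 ± 79.8 to 57.0 ± 21.6 CPM. Stard13 of the same family rose by 2.08 (SE 0.36, edgeR adjusted p 0.00159) at far lower levels, from 0.966 ± 0.297 to 4.02 ± 0.254 CPM. Of the LIM kinases, which act on the actin-severing protein cofilin, Limk1 rose by 0.45 (SE 0.13, edgeR adjusted p 0.0210, and 0.275 without the block) and Limk2 fell by 0.64 (SE 0.11, edgeR adjusted p 0.00126, and 0.159 without the block). Of 4 assembly and scaffold genes tested, 2 rose and 1 fell (75% beside 40.9%). Unc45a, a myosin chaperone, rose by 0.54 (SE 0.18, edgeR adjusted p 0.0357), Shroom3, an actin-binding protein of apical constriction, rose by 0.71 (SE 0.22, edgeR adjusted p 0.0258), and Anln, the scaffold anillin, fell by 0.65 (SE 0.15, edgeR adjusted p 0.00891). None of the 3 was called without the block.

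With CK666 added to withdrawn cells, 1 of the 48 genes was called, 2.08% beside 2.10% of all genes. It was Arhgef2, a microtubule-bound RhoA activator known as GEF-H1, at 99.2 ± 6.52 CPM with LIF2i, 130 ± 21.2 CPM after withdrawal and 196 ± 23.5 CPM with CK666 (SD, n = 3). The CK666 libraries were above all withdrawn libraries, by 0.60 on the log2 scale (SE 0.10, edgeR adjusted p 0.0298, higher in 3 of 3 pairs, and 0.357 without the block). Against LIF2i, CK666 cells had 15 of the 48 higher and 13 lower, 58.3% beside 37.1% of all genes, and 11 were called without the block, 22.9% beside 20.3% of all genes. Among the called genes, the 5 largest rises were Mylk2, Myl9, Ppp1r14c, Arhgef28 (3.77, SE 0.39) and Stard13 (2.10, SE 0.36), of which Mylk2, Myl9 and Ppp1r14c were near 0 with LIF2i. The 5 largest falls among called genes were Dlc1 (-2.05, SE 0.17), Rnd1 (-1.72, SE 0.41), the essential light chain gene Myl6b (-1.08, SE 0.37), Cit (-0.73, SE 0.17) and Rhoa (-0.73, SE 0.11). Dlc1 and Rnd1 were also called without the block, while Myl6b, Cit and Rhoa were not (adjusted p 0.170, 0.0563 and 0.0790). Rhoa was at 453 ± 122 CPM with LIF2i, 319 ± 62.7 CPM after withdrawal and 272 ± 65.2 CPM with CK666.

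**Figure D5:**
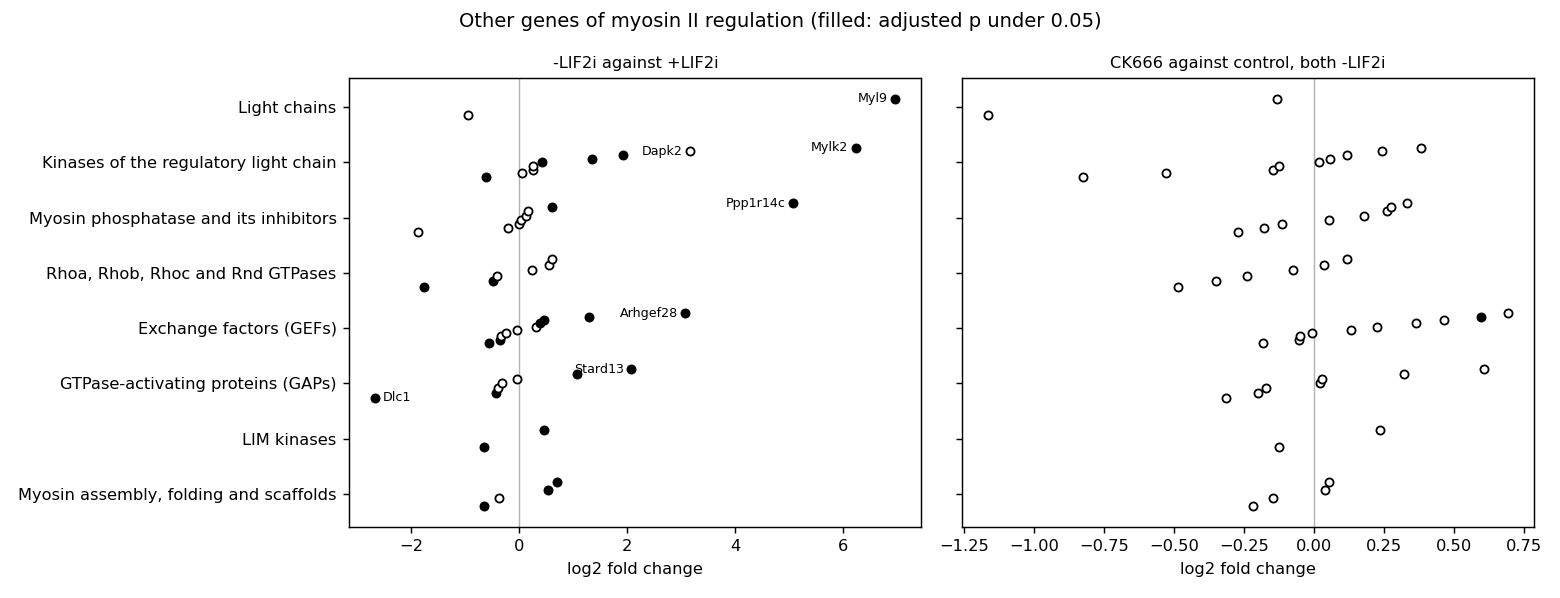
Log2 fold change of the 48 further genes of myosin II regulation by role, on withdrawal (left) and for CK666 against withdrawn control (right); each point is a gene, filled points passed an adjusted p under 0.05, names mark genes beyond 2 in either direction, and the panels have different axes. On the left 25 points are filled, led by Myl9 and Dlc1, with Myl9, Mylk2 and Ppp1r14c near 0 before withdrawal; on the right only Arhgef2 is filled.

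The profiles of the heavy chains over the 9 libraries were compared with those of 9497 protein-coding genes, by the root mean square difference of log2 CPM after each gene's mean was subtracted. The nearest to Myh9 were Erbin (0.0909), Rassf8 (0.102) and Dcaf5 (0.104), and those to Myh10 were Ccdc85c (0.103), Rnf187 (0.156) and Spred1 (0.164). Arl6ip1 (0.0864), Prkcz (0.0871) and Dclk2 (0.0893) were nearest to Myh14. Myh9 and Myh10 differed from each other by 0.461 on this measure, and Myh14 lay nearest to Ppp1r12a among the members (0.159). For Mylk the nearest were Hdac11 (0.596), Abhd8 (0.615) and Rangrf (0.626).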

How the data were processed

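Poly-A RNA was measured in 9 libraries of E14 cells, 3 in each of 3 groups. For every library the authors deposited, per the file headers, length, effective length, estimated counts (not normalized, not always whole) and TPM (scaled by the authors after division by effective length) of 119414 Ensembl transcripts. The other columns, length and effective length, were deposited too and served only for a length correction. The submitters' processing notes name FastQC, cutadapt 1.8.1, kallisto and sleuth, and the builds GRCh38 and mm10 without a role; counting by strand is not stated, so reads of overlapping genes on opposite strands cannot be told apart.

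Transcripts were assigned to genes with GENCODE M21 (GRCm38): 116728 (97.8%) matched by identifier, and the other 2686 held 0.880% to 1.06% of counts and were left out. Estimated counts were summed per symbol, rounded and tested with edgeR 4.0.16 in R 4.3.3 (robust quasi-likelihood test, TMM scaling, filterByExpr, 14619 genes), with all 9 libraries in 1 fit, the replicate number as a block and 4 residual degrees of freedom. The study calls the replicates paired, and deviations from group means of same-numbered libraries correlated across genes at a median of 0.41 (0.31 to 0.65). P-values were adjusted by Benjamini-Hochberg over all genes tested and called under 0.05. CPM values are TMM-scaled; 95% intervals come from the fit. Alternatives were the fit without the block, DESeq2 1.42.0, voom of limma 3.58.1, RLE scaling, no filter, an effective length offset, protein-coding transcripts only, the groups compared alone, and leaving out each replicate number or library; each Myl12b record alone was added after seeing the data. The test was checked on simulated counts.

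The genes, the 51 regulatory genes and the marker lists were chosen with earlier results of these data known. The choice held 10 genes, of which 2 are not reported here, and all counts, shares and medians of members are over the other 8. Named are these 8, of the regulatory genes those called or the 5 with the largest change in each direction, and the 3 nearest profiles (mean log2 CPM of at least 3, prior count 2) of each heavy chain and Mylk; other regulatory genes were named after their values were seen.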

Additional observations from a re-analysis of the deposited data

How the results depend on the processing

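Counts were lowest for Mylk, at 0 to 25 per library. Of 486 member values under alternatives, 413 kept direction and side of the threshold, 47 fell short of it, 7 passed newly and 19 turned sign; all 19 belong to values that did not pass in the reported fit. With no block, 3509 genes and 0 members were called for withdrawal, 0 genes (1250 at an unadjusted p under 0.05) for CK666 against withdrawn control, and 2967 genes and 1 member for CK666 against LIF2i, beside 5978 and 4, 307 and 0, and 5426 and 4 with it. For CK666 against withdrawn control, DESeq2 called 1142 genes, voom 555, the fit without a filter 578, the effective length offset 145, and the fit of those groups alone 1382 genes and 1 member, Myh9; for CK666 against LIF2i that fit called 2 members. Leaving out a replicate number or library gave 3110 to 6599 genes and 1 to 4 members for withdrawal, 0 to 1818 and 0 to 2 for CK666 against withdrawn control, and 2422 to 6137 and 1 to 5 for CK666 against LIF2i, lowest without replicate 3 and, for genes, highest without replicate 1 in each comparison.

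None of the values that turned sign had passed the threshold in the reported fit. On the log2 scale, the ordinary Myl12b record alone was 0.0274 for CK666 against withdrawn control, and Myh14 was 0.0121 for CK666 against LIF2i with protein-coding transcripts. Leaving out a replicate number or library spanned -0.13 to 0.27 for Myh9 and -0.31 to 0.0288 for Ppp1r12a on withdrawal. The same spans for CK666 against withdrawn control were -0.0574 to 0.34 for Myh10, -0.28 to 0.11 for Myl6, -0.34 to 0.0104 for Myl12b and -1.68 to 0.50 for Mylk. Against LIF2i the span was -0.16 to 0.0477 for Myh14. With protein-coding transcripts only, the mean Myh14 share of heavy-chain TPM moved by -0.89 points on withdrawal and -1.68 points for CK666 against LIF2i, beside -4.07 and -5.42 points with all transcripts. The cause of these differences was not tested. Mylk was not tested with protein-coding transcripts only, nor in the fits against LIF2i of those groups alone, since it did not pass the filter there, and DESeq2 gave it no adjusted p for CK666 against withdrawn control.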
